A study of Homo sapiens with 5 samples.

Results

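The genes described here encode 10 factors that cut and polyadenylate nascent messenger RNA or end its transcription: CPSF1, CPSF2, CPSF3, CPSF4, CSTF1, CSTF2, CSTF3, PCF11, CLP1 and XRN2. They were taken by symbol, and all 10 were found among the 23340 genes of the exon count table and the 22009 genes of the intron count table. The libraries come from A549, a human lung carcinoma epithelial cell line. They hold total RNA depleted of ribosomal RNA in 5 conditions: cells given 50 nM of a 23N randomer oligonucleotide for 9 h or 16 h, cells given the control oligo at 50 nM for the same times, and mock cells given Lipofectamine alone for 16 h. The series title concerns double-stranded RNA from inverted repeats in introns and between genes, RNase L and interferon, and exon and intron reads were counted apart for each gene.

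A pre-mRNA is released from RNA polymerase II by cleavage downstream of a poly(A) signal. The CPSF complex reads the AAUAAA hexamer and holds the endonuclease that cuts. The CSTF complex binds U- and GU-rich RNA past the cut, cleavage factor II (PCF11 and CLP1) links the machinery to the polymerase tail, and the exonuclease XRN2 degrades the RNA still attached to the polymerase until transcription ends. Both CSTF3 and PCF11 are known to make short transcripts that end at a poly(A) signal inside one of their own early introns, which is reported as a form of self-limitation.

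Each condition had 1 library, so no condition has a standard deviation, and p-values come from a fit over the 4 oligo libraries with time as a term. Nothing in the labels says that the 9 h and 16 h cultures were independent, and the spread the fit measures may be technical. Exon counts summed to 1792192 and 1476223 in the randomer libraries (9 h and 16 h), 2629053 and 2596995 in the control oligo libraries and 1957361 in the mock library. Introns held 49.7% and 56.9% of all counts with the randomer, 22.0% and 22.9% with the control oligo and 23.6% in mock. The exon totals include the ribosomal RNA entry RN45S. It held 7.84% and 16.4% of exon counts with the randomer, 6.78% and 7.24% with the control oligo and 11.5% in mock. Levels are given in CPM, the counts divided by the library's TMM-scaled exon total and multiplied by 1000000, for introns as well, and say nothing of RNA per cell. In such bulk samples fewer cells of a kind and less RNA per cell cannot be told apart. The epithelial keratins KRT8 and KRT18 were present in all 5 libraries, and 6 epithelial markers summed to 2113 and 1549 CPM with the randomer, 2973 and 2484 CPM with the control oligo and 2584 CPM in mock. KRT8 and KRT18 carried that sum. EPCAM had 0 and 4 exon counts with the randomer and 0 in the other 3 libraries, and KRT19 had 7 and 15 with the randomer and 0 in the others. KRT7 had 14 and 19 with the randomer, 0 and 3 with the control oligo and 0 in mock. CDH1 was read in all 5 libraries, with 14 and 21 exon counts with the randomer, 16 and 23 with the control oligo and 24 in mock. Exon counts of 5 leukocyte markers summed to 19.4 and 27.5 CPM and those of 3 endothelial markers to 30.4 and 57.2 CPM with the randomer, and both lists stood at 0 in the control oligo and mock libraries. Those lists moved with the intron share, and their part in the results was not tested.

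The sequences below show where the letters of the hexamer lie on annotated transcripts of the factors called by intron counts. Binding and cleavage at these sites were not measured. Each is a stretch of 30 bases at or near the 3′ end of a GENCODE transcript on GRCh38, written 5′ to 3′ with the AATAAA form of the poly(A) signal in capitals. They lie at chr2:9473067-9473096 (plus strand), chr11:33084584-33084613 (minus), chr11:83158850-83158879 (plus) and chr20:21389795-21389824 (plus), in this order.
CPSF3-201: tacctaaAATAAAatgcattcgtttctctg
CSTF3-201: tcctttaaaaAATAAAaggattcagaaaca
PCF11-207: aaaatttgtgAATAAAacatataaaatatg
XRN2-201: aaaaaaaAATAAAgttaaacttttaaaact
The stretches of CSTF3-201 and PCF11-207 reach the transcript's last base, and those of CPSF3-201 and XRN2-201 stop 5 and 3 bases before it. Between the hexamer and the transcript end lie 22 bases in CPSF3-201, 14 in CSTF3-201 and PCF11-207, and 20 in XRN2-201. PCF11-207 is a short transcript of 1 exon and 1720 bases that ends inside intron 1 of the 16-exon PCF11 transcript. The full PCF11-201 held no AATAAA in its last 50 bases. CSTF3-202 and CSTF3-203 (715 and 1132 bases) both end inside intron 3 of the 21-exon CSTF3 transcript and held no AATAAA in their last 50 bases. The count tables give 1 exon and 1 intron value per gene, so reads of a short transcript cannot be told apart from reads of a full one or of an unspliced RNA, and the place of intron reads within these genes was not tested.

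PCF11 was the only one of the 10 genes called by exon counts in the fit over both times. PCF11 binds the tail of RNA polymerase II and takes part in both cleavage and termination. Its exon counts were 431 (9 h) and 596 (16 h) with the randomer, 149 and 110 with the control oligo, and 98 in mock. Scaled for depth these were 226 and 421 CPM, 56.0 and 41.6 CPM, and 52.7 CPM. Both randomer libraries stood far above the other 3, which lay close together. Over both times PCF11 exon counts rose 6.35-fold with the randomer (log2 change 2.67, SE 0.30, adjusted p = 1.05e-12, edgeR quasi-likelihood). By time, the log2 change over the control oligo was 2.01 at 9 h (95% counting interval 1.74 to 2.29) and 3.34 at 16 h (3.04 to 3.64). The intervals do not overlap, but they cover counting error only and the difference between the times was not tested. Against mock at 16 h it was 2.997, and the control oligo stood at -0.34 against mock, with an interval of -0.75 to 0.07.

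The other 9 genes did not pass the exon test, which makes 1 of 10 called higher against 6.9% of the 11407 genes tested. None was called lower, against 3.16% of all genes, at 1 residual degree of freedom. The median exon log2 change of the 10 was -0.09, beside 0.04 over all genes tested. PCF11 lay above 92.8% of all genes tested, with 354 called genes above it, and so is one of many with a change of this size.

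**Figure D1:**
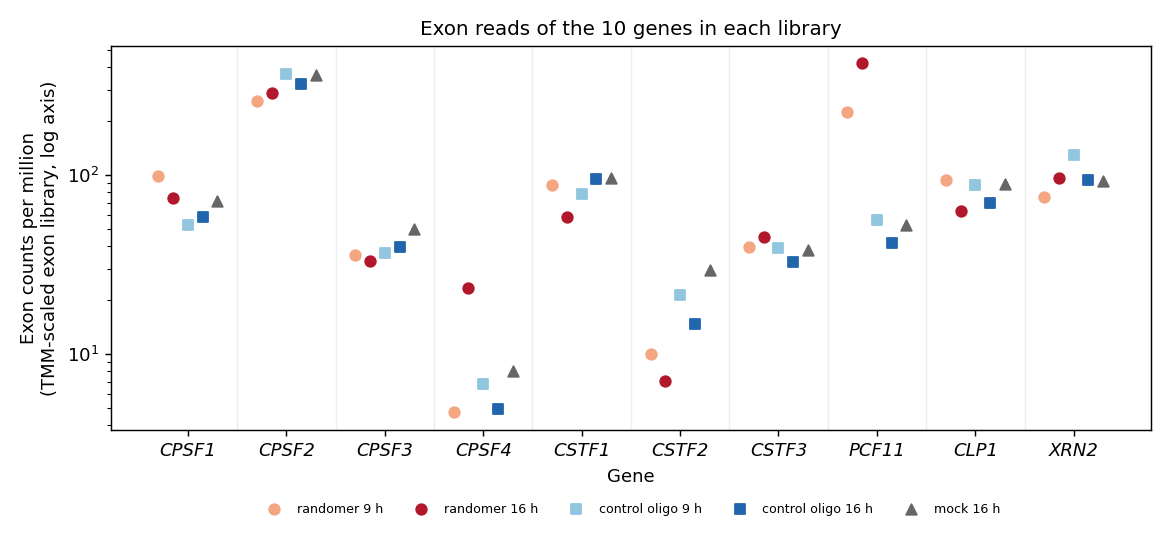
Exon CPM (log axis) of the 10 genes, with 1 point per library: randomer at 9 h and 16 h (circles), control oligo at 9 h and 16 h (squares) and mock (triangle). PCF11 stands at 226 and 421 CPM in the randomer libraries, above 56.0 and 41.6 CPM with the control oligo and 52.7 CPM in mock.

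PCF11 introns rose alongside its exons. The gene had 347 and 652 intron counts with the randomer, 110 and 77 with the control oligo and 50 in mock. The change was 8.29-fold over both times (log2 3.05, SE 0.53, adjusted p = 9.88e-05, edgeR), again with no overlap between the randomer and the other libraries. The log2 change was 2.14 at 9 h and 3.98 at 16 h. Introns held 44.6% (41.1% to 48.2%) and 52.2% (49.4% to 55.0%) of PCF11 counts with the randomer, 42.5% (36.4% to 48.7%) and 41.2% (34.05% to 48.6%) with the control oligo and 33.8% (26.2% to 42.0%) in mock. The intron-to-exon ratio of PCF11 was not called (log2 change 0.38, SE 0.42, adjusted p = 0.489, limma). A rise by exon and by intron counts with no call of the ratio was found in 4.05% of the 9619 genes in all 3 fits. Within the randomer, PCF11 was higher at 16 h than at 9 h by 0.90 (0.72 to 1.08) in exon counts and by 1.34 (1.15 to 1.53) in intron counts on the log2 scale. The annotation places the noncoding PCF11-AS1 on the opposite strand over PCF11. No source used here says if counting used strand, and antisense reads cannot be told apart.

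Per kilobase of exon, the level of PCF11 changed its place among the 10. It ranked 2 with the randomer at 9 h (29.4 CPM per kb) and 1 at 16 h (54.8 CPM per kb), but 9 in both control oligo libraries (7.30 and 5.42 CPM per kb) and in mock (6.86 CPM per kb). CLP1, the RNA kinase that pairs with PCF11 in cleavage factor II, was the most abundant per kilobase in the other 4 libraries, with 51.3 CPM per kb in the randomer 9 h library, 47.9 and 38.3 with the control oligo and 48.5 in mock, and came after PCF11 in the randomer 16 h library with 34.4. Over the control oligo and mock libraries the exon level per kilobase averaged 44.9 ± 5.7 for CLP1, 30.6 ± 6.1 for XRN2, 26.9 ± 1.9 for CPSF2, 20.9 ± 2.3 for CSTF1 and 13.5 ± 2.2 for CPSF1 (SD, n = 3 libraries of different treatment and time). In that order XRN2 and CPSF2 lay within their spread of each other, as did CPSF1 and CPSF3 (12.3 ± 2.0). CSTF2 (10.6 ± 3.6) and CSTF3 (9.93 ± 0.96) also lay within that spread, PCF11 followed with 6.53 ± 0.98, and CPSF4 was lowest with 3.19 ± 0.76. Exon lengths were those of RefSeq-linked GENCODE transcripts on GRCh38, such as 13.0 kb for CPSF2 and 1.83 kb for CLP1. The counts were made on hg19 with an annotation that is not given, so these ranks depend on the lengths used.

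Among introns, CSTF3 had the largest change in the fit over both times, although at 16 h alone PCF11 (log2 3.98) stood slightly above it (3.89). CSTF3 is the scaffold of the CSTF complex and joins it to CPSF. It had 760 and 866 intron counts with the randomer, 177 and 109 with the control oligo and 59 in mock, or 398 and 611, 66.5 and 41.3, and 31.7 CPM. The lowest randomer library stood several times above the highest of the rest. CSTF3 introns rose 9.37-fold (log2 3.23, SE 0.48, adjusted p = 1.94e-05, edgeR), with a log2 change of 2.58 at 9 h and 3.89 at 16 h. Its exon counts were 76 and 64 with the randomer, 104 and 86 with the control oligo and 71 in mock, and did not pass the test (log2 change 0.25, SE 0.48, adjusted p = 0.845). The ratio of intron to exon counts rose (log2 2.98, SE 0.56, adjusted p = 1.95e-05, limma). Introns held 90.9% (88.8% to 92.8%) and 93.1% (91.3% to 94.7%) of CSTF3 counts with the randomer, 63.0% (57.1% to 68.6%) and 55.9% (48.6% to 63.0%) with the control oligo and 45.4% (36.6% to 54.3%) in mock. TCP11L1, which overlaps CSTF3 on the opposite strand, had 68 and 84 intron counts with the randomer, 11 and 26 with the control oligo and 2 in mock. Reads shared between the pair cannot be told apart without strand.

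XRN2 and CPSF3 also gained intron counts without an exon call, by less than the median log2 change of 1.96 over all genes tested. XRN2, the nuclear exonuclease of termination, had 552 and 461 intron counts with the randomer, 247 and 253 with the control oligo and 188 in mock. The rise was 3.25-fold (log2 1.70, SE 0.43, adjusted p = 0.00299, edgeR) and nearly the same at both times, with 1.64 at 9 h and 1.77 at 16 h. XRN2 exons had 144 and 137 counts with the randomer, 344 and 248 with the control oligo and 172 in mock (log2 change -0.37, SE 0.33, adjusted p = 0.594). Introns held 79.3% and 77.1% of XRN2 counts with the randomer, 41.8% and 50.5% with the control oligo and 52.2% in mock, and the ratio rose (log2 2.07, SE 0.43, adjusted p = 0.000108, limma). The annotation places the antisense gene AL117332.1 over XRN2 on the opposite strand, with no counts of its own here. CPSF3, the endonuclease that makes the cut, had 108 and 74 intron counts with the randomer, 33 and 48 with the control oligo and 54 in mock. Its rise was 3.61-fold (log2 1.85, SE 0.69, adjusted p = 0.0334, edgeR). Scaled for depth, the randomer libraries held 56.6 and 52.2 CPM and did not overlap with 12.4, 18.2 and 29.04 CPM in the others, though mock came closer to the randomer than either control oligo library. The CPSF3 ratio rose as well (log2 1.99, SE 0.72, adjusted p = 0.0224, limma), while its exons had 68 and 47 counts with the randomer, 98 and 105 with the control oligo and 93 in mock.

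Counts of intron calls among these genes lay near those of all genes. Of the 9 genes with enough intron counts to test, 4 were called higher (PCF11, CSTF3, XRN2 and CPSF3), beside 47.6% of the 11983 genes tested. The median log2 change of the 9 was 1.70, beside 1.96 over all genes. By fitted intron change CSTF3 lay above 73.8% of all genes tested and PCF11 above 71.6%, with 2502 and 2702 called genes above them. XRN2 and CPSF3 lay above 43.5% and 47.2%. The ratio was called higher in 3 of 9 and lower in 0 of 9, beside 38.5% and 0.135% of 9619 genes. Gain of introns and of the ratio with no exon call, as in CSTF3, XRN2 and CPSF3, was found in 28.3% of genes in all 3 fits. The intron call of CPSF3 was lost when libraries were scaled to summed exon and intron totals (adjusted p = 0.216) and when mock was added to the control arm (adjusted p = 0.0502). Scaling the intron table by its own TMM factors ended the calls of CPSF3 and XRN2 (log2 changes 0.21 and 0.05), and the 3 ratio calls were lost without the variance trend (adjusted p 0.119 to 0.134).

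**Figure D2:**
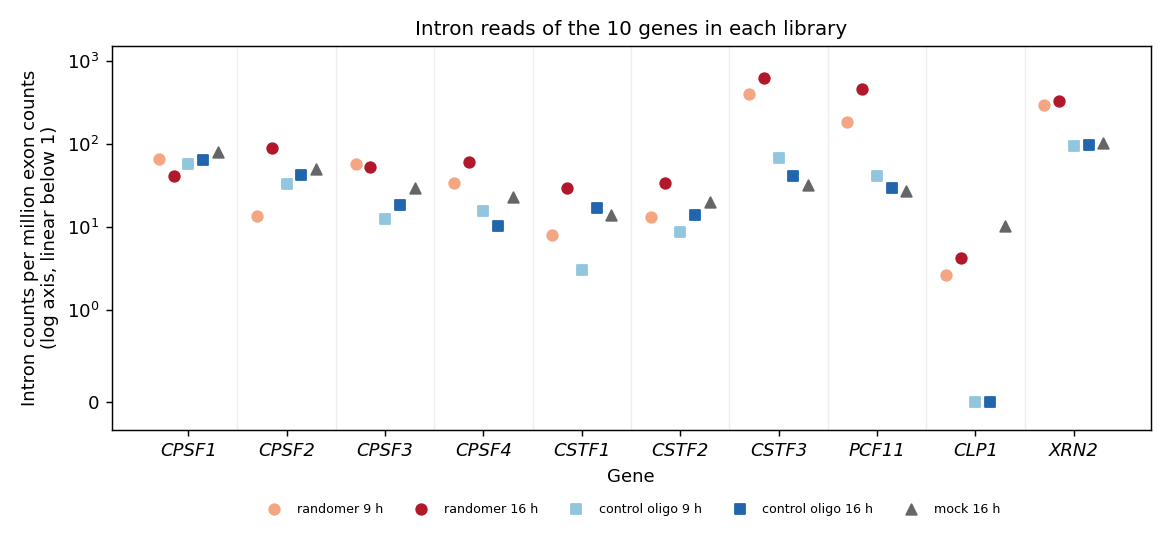
Intron CPM (log axis, linear below 1) of the 10 genes, with 1 point per library as in the plot of exon levels. CSTF3 (398 and 611 CPM), PCF11 (182 and 460 CPM) and XRN2 (289 and 325 CPM) stand above their control oligo and mock libraries in both randomer libraries, while the CPSF1 points overlap.

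**Figure D3:**
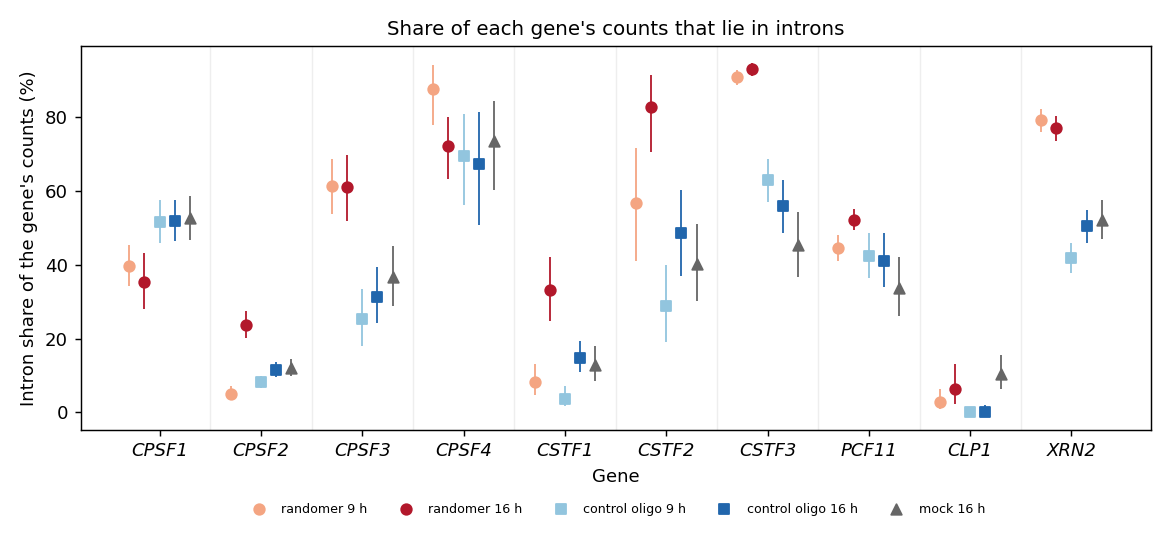
Share of each gene's counts that lie in introns (%), with Clopper-Pearson 95% intervals of counting error, for the randomer (circles), control oligo (squares) and mock (triangle) libraries. The randomer shares of CSTF3, XRN2, CPSF3, CSTF2 and PCF11 lie above the others, with overlapping intervals in CSTF2 and PCF11. Those of CPSF1 (39.6% and 35.4%) lie below 51.7%, 52.0% and 52.7%.

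The introns of CPSF1 and CPSF2 stood low among all genes in this comparison. CPSF1 is the large scaffold subunit of CPSF, and CPSF2 is the catalytically inactive relative of CPSF3 that pairs with it. CPSF1 had 124 and 58 intron counts with the randomer, 150 and 166 with the control oligo and 148 in mock. In CPM these were 64.9 and 40.9, 56.4 and 62.8, and 79.6, so that the groups overlapped. Its intron log2 change was -0.20 (SE 0.56, adjusted p = 0.794) and lay above only 7.60% of all genes tested. CPSF1 exons stood at 99.0 and 74.8 CPM with the randomer, 52.6 and 57.9 CPM with the control oligo and 71.5 CPM in mock. Both randomer libraries were above the rest, which held for 22.5% of all genes, but the change was not called (log2 0.64, SE 0.38, adjusted p = 0.336) and its sign turned to -0.09 with summed exon and intron totals. Introns held 39.6% (34.2% to 45.3%) and 35.4% (28.1% to 43.2%) of CPSF1 counts with the randomer, 51.7% (45.8% to 57.6%) and 52.0% (46.4% to 57.6%) with the control oligo and 52.7% (46.7% to 58.6%) in mock, with no call of the ratio (log2 change -0.84, SE 0.50, adjusted p = 0.171). ADCK5 overlaps CPSF1 on the opposite strand.

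CPSF2 introns differed between the times. Counts were 26 (9 h) and 127 (16 h) with the randomer, 87 and 111 with the control oligo, and 92 in mock. At 9 h the randomer library was the lowest of all 5 (13.6 CPM) and at 16 h it was the highest (89.7 CPM). The log2 change over the control oligo was -1.26 at 9 h (-1.96 to -0.62) and 1.09 at 16 h (0.71 to 1.47), and the fit over both times gave -0.04 (SE 0.68, adjusted p = 0.971). CPSF2 exons held 258 and 289 CPM with the randomer, below 368 and 322 CPM with the control oligo and 364 CPM in mock, and were not called (log2 change -0.34, SE 0.24, adjusted p = 0.452). With the intron table's own TMM factors, under which the median over all genes fell to 0.32, both genes were called lower in introns, CPSF1 at -1.84 (adjusted p = 0.0031) and CPSF2 at -1.68 (adjusted p = 0.0299). With summed totals CPSF2 and XRN2 were called lower in exons (-1.08 and -1.11), where the median over all genes was -0.70.

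CPSF4, CSTF1 and CSTF2 were called by none of the measures, as were CPSF1 and CPSF2 above. Of all genes in the 3 fits, which leave out CLP1, 44% were called by none. CLP1 was tested by exon counts alone and was not called. CPSF4, the zinc finger subunit that contacts the poly(A) signal together with WDR33, had 64 and 86 intron counts with the randomer, 41 and 27 with the control oligo and 42 in mock. Scaled for depth both randomer libraries were higher, but the change missed the threshold (log2 1.84, SE 0.77, adjusted p = 0.056, edgeR), while DESeq2 gave an adjusted p of 0.0226. In the annotation 4 genes overlap CPSF4 on the opposite strand. The entry ATP5J2-PTCD1, linked to them by name, had 444 and 275 intron counts with the randomer, 690 and 648 with the control oligo and 572 in mock. Reads shared with CPSF4 cannot be told apart without strand. CPSF4 exons had 9 and 33 counts with the randomer, 18 and 13 with the control oligo and 15 in mock, a log2 change of -0.52 at 9 h and 2.24 at 16 h (1.28 to 3.29), not called over both times (adjusted p = 0.807). Across all 5 libraries the intron CPM of the randomer lay above the rest for 5 of 9 genes (CPSF3, CPSF4, CSTF3, PCF11 and XRN2), beside 70.3% of all genes, and below the rest for 0 of 9, beside 2.18%. In exons 3 of 10 lay above (CPSF1, CSTF3 and PCF11) and 3 of 10 below (CPSF2, CPSF3 and CSTF2), beside 22.5% and 18% of all genes.

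CSTF2, the subunit that binds GU-rich RNA downstream of the cut, had the lowest exon change of the 10. It had 19 and 10 exon counts with the randomer, 57 and 39 with the control oligo and 55 in mock. By time the log2 change was -1.11 (-1.94 to -0.34) at 9 h and -1.06 (-2.23 to -0.04) at 16 h, with intervals of counting error alone. The fit did not call it (log2 change -1.08, SE 0.97, adjusted p = 0.593). Its introns had 25 and 48 counts with the randomer, 23 and 37 with the control oligo and 37 in mock. CSTF2T is a close intronless copy of CSTF2 and had 126 and 90 exon counts with the randomer, 221 and 262 with the control oligo and 184 in mock. How reads were split between the pair is not given, and values of CSTF2 are uncertain for that reason. CSTF1, a WD-repeat subunit of the same complex, had 167 and 83 exon counts with the randomer, 208 and 252 with the control oligo and 178 in mock (log2 change -0.26, SE 0.36, adjusted p = 0.766), and between 8 and 44 intron counts. CLP1 had 179 and 89 exon counts with the randomer, 233 and 185 with the control oligo and 165 in mock (log2 change -0.03, SE 0.36, adjusted p = 0.983). Its introns, 2.28 kb in all, had 5 and 6 counts with the randomer, 0 and 0 with the control oligo and 19 in mock, too few to test.

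**Figure D4:**
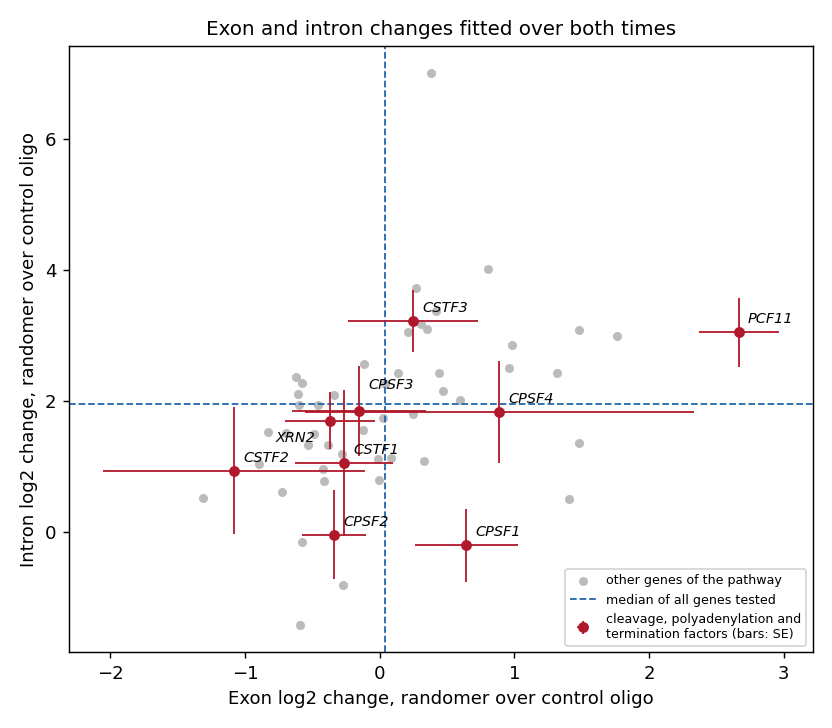
Fitted log2 change of randomer over control oligo in exons (x axis) and introns (y axis) for the 9 factors tested in both (red, bars are SE) and for other genes of the pathway (grey); dashed lines mark the medians of all genes tested, 0.04 and 1.96. PCF11 lies to the upper right, CSTF3 above with little exon change, and CPSF1 and CPSF2 near 0 on the intron axis.

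In GENCODE, introns sum to 83.1 kb in XRN2, 73.3 kb in CSTF3, 46.1 kb in CPSF3 and 22.8 kb in PCF11, the genes called by intron counts. CPSF2, not called, has 37.2 kb, and CPSF1 has 11.6 kb in 37 introns. A relation of intron length to intron change was not tested. The 10 genes summed to 929 and 1111 exon CPM with the randomer, 875 and 773 CPM with the control oligo and 890 CPM in mock. Their introns summed to 1061 and 1708 CPM, 329 and 330 CPM, and 384 CPM in the same order. Introns thus made up 53.3% and 60.6% of their counts with the randomer, 27.3% and 29.9% with the control oligo and 30.2% in mock. The control oligo 16 h library was also set against mock. Of the 8 genes with a mean of at least 50 exon counts, 0 differed 2-fold, beside 5.55% of genes higher and 3.82% lower. Of 6 with as many intron counts, 0 differed 2-fold, beside 5.21% higher and 9.56% lower. Below that mean, the log2 ratio of control oligo to mock was -1.003 for CSTF2 exons and -1.14 for CPSF4 introns, and CLP1 introns had 0 counts with the control oligo and 19 in mock.

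The promoters of the factors, called or not, were read for known motifs. RefSeq promoter windows of 300 bases on GRCh38.p14 were found for 9 of the 10 genes, all but CPSF1. The search covered both strands for the cAMP response element TGACGTCA, the AP-1 site TGANTCA, the EGR site GCGNGGGCG and the CCAAT box. These genes had 12 windows, some of them overlapping. TGACGTCA was in 4 of the 12 windows (CSTF3, CSTF1 and both of XRN2, which share 1 match), beside 1.85% of 35116 promoter windows. EGR letters were in 1 of 12 (CLP1), beside 9.43%. CCAAT was in 6 of 12 (5 genes), beside 34.6%, and AP-1 letters were in 0 of 12, beside 7.71%. The windows of CSTF3 (chr11:33161431-33161730, minus strand), XRN2 (chr20:21303081-21303380, plus), CPSF3 (chr2:9423404-9423703, plus) and PCF11 (chr11:83156881-83157180, plus) are shown, with TGACGTCA in capitals. They belong to the 4 genes called by intron counts.
CSTF3: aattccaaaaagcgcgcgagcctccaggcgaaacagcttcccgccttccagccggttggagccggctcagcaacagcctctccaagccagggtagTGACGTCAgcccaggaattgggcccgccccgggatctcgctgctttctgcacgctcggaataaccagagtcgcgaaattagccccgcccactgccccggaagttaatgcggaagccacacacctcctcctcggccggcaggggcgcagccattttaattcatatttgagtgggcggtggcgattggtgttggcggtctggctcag
XRN2: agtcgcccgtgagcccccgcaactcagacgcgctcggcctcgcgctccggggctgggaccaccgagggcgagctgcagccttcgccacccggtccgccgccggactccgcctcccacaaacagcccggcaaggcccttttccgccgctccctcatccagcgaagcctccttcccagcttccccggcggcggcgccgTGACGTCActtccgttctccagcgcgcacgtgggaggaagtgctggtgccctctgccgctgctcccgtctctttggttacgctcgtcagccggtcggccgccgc
CPSF3: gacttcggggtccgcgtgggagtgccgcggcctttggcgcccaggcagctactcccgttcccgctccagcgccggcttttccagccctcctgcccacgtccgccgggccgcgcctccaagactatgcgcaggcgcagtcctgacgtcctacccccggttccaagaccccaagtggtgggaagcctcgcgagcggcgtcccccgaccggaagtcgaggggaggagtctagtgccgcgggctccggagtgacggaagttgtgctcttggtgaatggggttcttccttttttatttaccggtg
PCF11: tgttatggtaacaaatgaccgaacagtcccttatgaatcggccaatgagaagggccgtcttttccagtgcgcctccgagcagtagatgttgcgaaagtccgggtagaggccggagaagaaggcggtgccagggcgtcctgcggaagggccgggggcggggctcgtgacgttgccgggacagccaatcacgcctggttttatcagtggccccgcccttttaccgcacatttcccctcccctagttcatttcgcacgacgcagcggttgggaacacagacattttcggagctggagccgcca
The motif begins at position -155 from the annotated start in CSTF3 and at -54 in XRN2. CPSF3 held none of the 4 motifs, PCF11 held 2 CCAAT boxes alone, and CSTF1, called by no measure, held TGACGTCA in 1 of its windows. A match describes these letters only, and binding was not measured.

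Other genes of the pathway were read from a list of 54. Of the 50 tested by exon counts, 6 were called higher and 1 lower, beside 6.9% and 3.16% of all genes. RBBP6, a ubiquitin ligase and cleavage cofactor, rose 2.50-fold (log2 1.32, adjusted p = 0.000427, edgeR), with 181 and 244 CPM in the randomer libraries, 73.7 and 96.1 CPM with the control oligo and 161 CPM in mock. The mock value lay near the randomer at 9 h. PAPOLG, a nuclear poly(A) polymerase, rose by a log2 of 1.48 (adjusted p = 0.0283), with 57.1 and 77.7 CPM in the randomer libraries, 10.5 and 50.0 CPM with the control oligo and 45.2 CPM in mock.

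ZNF473, a component of histone mRNA processing, rose by 1.76 on the log2 scale (adjusted p = 0.0208, edgeR) and had 28.8 and 74.8 CPM with the randomer, 9.40 and 20.1 CPM with the control oligo and 1.61 CPM in mock. CASP8AP2 of the same list rose by 1.41 (adjusted p = 0.0321, edgeR), with 61.8 and 76.2 CPM with the randomer, 15.0 and 43.1 CPM with the control oligo and 50.5 CPM in mock. CPSF3L, the endonuclease of the Integrator complex, rose by 1.48 (adjusted p = 0.0489, edgeR), with 49.8 and 55.8 CPM with the randomer, 24.8 and 14.0 CPM with the control oligo and 28.0 CPM in mock. PPP1CB, a catalytic subunit of protein phosphatase 1 that associates with the cleavage complex, was the gene called lower. It stood at 497 and 531 CPM with the randomer, 759 and 801 CPM with the control oligo and 651 CPM in mock (log2 change -0.60, adjusted p = 0.0426, edgeR). None of these named changes was as large as that of PCF11, and the differences from PCF11 were not tested.

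By intron counts 26 of 47 pathway genes were called higher and 0 lower, beside 47.6% and 0.0501% of all genes, with a median log2 change of 1.94 beside 1.96. Among other cleavage and polyadenylation subunits 6 of 10 were called, led by FIP1L1 (2.57), WDR33 (2.43) and RBBP6 (2.43). Both poly(A) polymerases PAPOLG (3.08) and PAPOLA (1.74) were called among 3 genes tested. Termination factors and readers of the polymerase tail had 8 of 12 called, with RPRD2 (3.73), the elongation factor SUPT5H (3.38) and XRN1 (3.06), the cytoplasmic relative of XRN2, the highest of those with a mean of at least 50 intron counts, the minimum for the genes named here. Integrator had 8 of 14, led by INTS6 (4.02), INTS2 (3.10) and INTS4 (2.28), and the histone list had 2 of 8, ZNF473 (2.99) and NCBP1 (1.94). By ratio 30 of 47 were called higher and 0 lower, beside 38.5% and 0.135% of all genes. The median ratio change was 1.80 beside 1.61. The termination list had 11 of 12 called by ratio, and the other cleavage and polyadenylation subunits had 8 of 10. The list of poly(A) polymerases had 2 of 3, Integrator 6 of 14 and the histone list 3 of 8. Without the variance trend no gene at all was called by ratio, with 3358 genes at an unadjusted p under 0.05 (limma). CSTF3, at 3.23, stood below RPRD2, SUPT5H and INTS6 in the size of its fitted intron change.

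**Figure D5:**
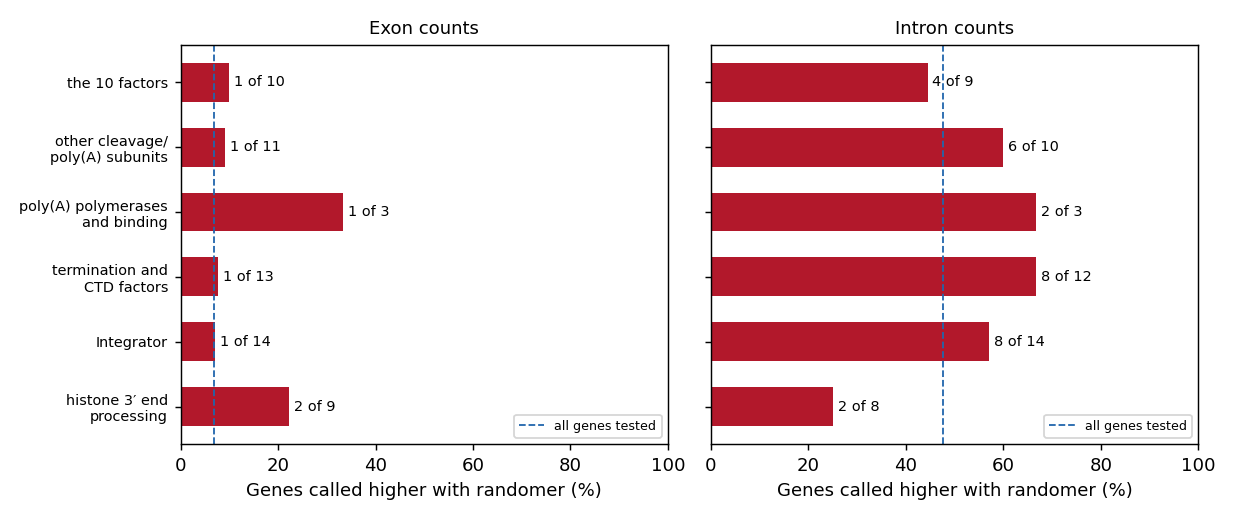
Percent of genes tested that were called higher with the randomer against the control oligo (adjusted p under 0.05), for the 10 factors and 5 other lists of the pathway, by exon counts (left) and intron counts (right). Dashed lines mark all genes tested (6.9% and 47.6%), and the factors had 1 of 10 and 4 of 9.

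The genes nearest to PCF11 in pattern were sought among 4156 genes by Euclidean distance over the 10 log2 exon and intron CPM values of the 5 libraries, each measure centred on its mean. The nearest were PLXNB1 (distance 1.06), a semaphorin receptor, KDM6B (1.12), a histone demethylase, NXF1 (1.18), the export receptor of mRNA, KLF10 (1.23), a zinc finger transcription factor, and LOC100507217 (1.24), beside a median distance of 3.75 over all genes searched. For CSTF3 the genes nearest in pattern included ZFP106 (0.493), IGF2R (0.601), GIGYF2 (0.674) and CDK12 (0.683), beside a median of 2.60. CDK12, a kinase of the polymerase tail, had 375 and 381 intron counts with the randomer, 94 and 69 with the control oligo and 31 in mock, and its exon log2 change was 0.01. These distances describe 5 libraries whose measures share their scaling.

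Depth limited the less abundant genes. In the ratio of control oligo to mock, the spread of log2 exon values over all genes (scaled median absolute deviation) was 1.27 at a mean of 10 to 50 counts, 0.66 at 50 to 200 and 0.36 at 200 to 1000, and for introns it was 1.27, 0.67 and 0.38. A change of 2-fold in CPSF4 or CSTF2 exons, or in CSTF1 and CSTF2 introns, could therefore not be told apart from this spread. CLP1 introns, with a mean of 6 counts, lay below the lowest of these ranges. Larger changes also went without a call, as in CPSF4 introns (mean of 52 counts, 3.57-fold, adjusted p = 0.056, edgeR). The smallest change that the fits could detect in the other genes was not tested.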

How the data were processed

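Per the labels, total RNA of A549 cells was depleted of ribosomal RNA and sequenced, with 1 library per condition. The submitters' processing notes name TopHat2, HTSeq and hg19 without versions; no label or header gives the annotation, the strandedness or the filters. The authors deposited raw read counts per gene in an exon table and an intron table. Rows whose symbols had been turned into dates, 28 in the exon and 28 in the intron table (0.153% to 0.289% of a library's counts) were left out. The genes and lists were chosen with earlier results of these data known. All 10 genes are named, and of the other pathway genes those called by exon counts and up to 3 per list with the largest called intron change at a mean of at least 50 intron counts. Some genes that this rule or the pattern search names are not reported here.

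A gene was tested where 2 or more of the 5 libraries had 10 or more counts. The fits used the 4 oligo libraries and an additive time term, which left 1 residual degree of freedom. Exon and intron counts were tested with edgeR 4.0.16 (quasi-likelihood, TMM factors of the exon table for both) in R 4.3.3. The SE given for edgeR is the absolute log2 change divided by the square root of the F statistic. In these fits the spread was pooled across genes, and the p-values rest on that pooling. The log2 intron-to-exon ratio (0.5 added to both counts) was fitted in limma 3.58.1, with a variance trend on the smaller count. P-values were adjusted by Benjamini-Hochberg over all genes tested, with a threshold of 0.05. Folds at a single time have exact conditional binomial 95% intervals, and shares have Clopper-Pearson 95% intervals. Both cover counting error only. DESeq2 1.42.0, other scalings, other filters and other designs were run as alternatives.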

Additional observations from a re-analysis of the deposited data

Results flagged for a closer look

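For 6 gene and measure pairs the log2 change of randomer over control oligo had opposite signs at 9 h and 16 h, with 1 library per condition at each time, and these differences between the times were not tested. CPSF2 introns stood at -1.26 at 9 h and 1.09 at 16 h, the single pair in which both counting intervals exclude 0. The other pairs were CPSF1 introns (0.20 and -0.62), CPSF4 exons (-0.52 and 2.24), CSTF1 exons (0.16 and -0.70), XRN2 exons (-0.78 and 0.043) and CLP1 exons (0.10 and -0.16).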

How the results depend on the processing

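PCF11 kept its exon call (log2 change 1.93 to 2.72) and its intron call (1.41 to 3.27), and CSTF3 its intron call (1.58 to 3.45), under each alternative run. The adjusted p of the PCF11 exon change was highest without the time term, at 0.000627 (edgeR). Over single genes 167 values kept direction and side of the threshold, 13 lost their call, 6 gained one and 10 changed sign. With libraries scaled to summed exon and intron totals the median exon change over all genes was -0.70, and exon calls were 357 higher and 2192 lower (2 of them among the 10 factors), intron calls were 3785 higher and 78 lower, and CPSF1 and CSTF3 exons turned to -0.095 and -0.49. With TMM factors of the intron table itself, 1858 genes were called higher and 614 lower in introns, 2 factors each way, and CSTF1 and CSTF2 introns turned to -0.59 and -0.70. DESeq2 size factors gave 237 genes lower in exons and 3 in introns, and the DESeq2 test 29 lower in introns. Without the time term 95 genes were lower in exons, 15 in introns and 4 by ratio, and CPSF2 introns turned to 0.46. With mock added to the control arm 10 genes were lower in introns and 8 by ratio, and CPSF2 introns turned to 0.12. Ratios centred on their median gave 113 genes higher and 40 lower, with 0 factors higher and 1 lower (CPSF1), and turned CPSF2 to -1.30, CPSF4 to -0.59, CSTF1 to -0.22 and PCF11 to -1.17. Without the variance trend, and without the filter on low counts, limma called 0 genes higher and 0 lower by ratio, 0 of them factors, though 3358 and 4190 genes had an unadjusted p under 0.05; the ratio calls thus rest on both choices. The cause of these shifts was not tested. The time term sets each randomer library against the control oligo library of its own time, and the values without it stand above. No paired analysis by replicate, and none that leaves one out, was possible because each condition had 1 library and the labels carry no replicate numbers.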
